A study of Mus musculus with 29 samples.

Results

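LXR target genes of lipid efflux and lipogenesis were described across sorted macrophages of the spleen and liver. The set held 10 genes, taken by symbol from the deposited table, and all 10 were among its 23930 genes. They comprise Abca1 and Abcg1, which export cholesterol and phospholipid from cells, the lipid carrier Apoe, the phospholipid transfer protein Pltp, the ubiquitin ligase Mylip, the phospholipid remodeling enzyme Lpcat3, the lipogenic transcription factor Srebf1, the fatty acid synthase Fasn, and the stearoyl-CoA desaturases Scd1 and Scd2. RNase T2 is an endosomal RNase, and Rnaset2-/- mice lack both genes that encode it, Rnaset2a and Rnaset2b. The 29 RNA-seq libraries were made from cells of untreated wild-type (WT) and Rnaset2-/- mice right after sorting. From the spleen, they comprise CD11b+ Ly6C-high and Ly6C-low macrophages of WT mice (3 libraries each) and of Rnaset2-/- mice (3 Ly6C-high and 4 Ly6C-low). From the liver, they comprise Ly6C-high and Ly6C-low macrophages of both genotypes (3 libraries each) and Kupffer cells (KCs), the resident macrophages of the liver, of WT mice (4 libraries). The mice were on the C57BL/6 background, and ages were not given in the sources used here. The labels number the libraries as replicates without saying that each came from a separate mouse, so p-values measure the spread between these libraries.

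LXRα (Nr1h3) and LXRβ (Nr1h2) are nuclear receptors that are activated by oxysterols and desmosterol and that bind DNA together with the retinoid X receptor. In macrophages, they induce genes for the removal of cholesterol and the remodeling of membrane lipids, and they also induce Srebf1 and the fatty acid genes downstream of it. KCs express LXRα as part of their identity program. Several of these genes have other inducers, and hepatocytes also express Apoe, Fasn and Scd1 at high levels. In a bulk library, a change in the number of cells that express a gene cannot be told apart from a change in RNA per cell.

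Levels are RPM, the reads of a gene scaled to the total reads of its library. The kit amplifies a single target per gene, so RPM was compared between groups for the same gene and never between genes. The libraries held 11175843 to 21167602 reads, and a floor of 3 reads corresponded to 0.142 to 0.268 RPM, which covers counting error only. A gene was called when limma gave an adjusted p below 0.05 and a change of >1.5-fold after relative log expression scaling. Overlap between groups was read on RPM before scaling, and the share of all genes without overlap is not given. Counts under other settings or with libraries left out come without the share of all genes called, and cannot be compared with it. Several libraries stood apart from their groups. KC replicate 3 held 5956 RPM of 7 KC markers against 16518 to 18521 RPM in the other KC libraries, and 5868 RPM of hepatocyte markers against 1808 to 1971 RPM. Replicates 1 and 2 of the splenic Ly6C-low macrophages of Rnaset2-/- mice held 39578 and 22472 RPM of neutrophil markers against at most 4319 RPM in replicates 3 and 4. Replicate 2 of that group held 301 RPM of Y-linked transcripts and 0.781 RPM of Xist, while the other 3 held Xist and almost no Y-linked transcripts. Replicate 1 of both hepatic subsets of Rnaset2-/- mice differed most from its group. All 6 hepatic libraries of Rnaset2-/- mice held Y-linked transcripts and almost no Xist (at most 0.154 RPM), whereas all 6 WT Ly6C-high and Ly6C-low libraries of the liver held Xist and 4 of them, replicates 2 and 3 of both subsets, also Y-linked transcripts, so in the liver the effects of genotype and of sex cannot be told apart. The splenic Ly6C-high libraries of Rnaset2-/- mice and all KC libraries held Xist and almost no Y-linked transcripts, so sex also cannot be told apart from organ in Rnaset2-/- Ly6C-high macrophages, or from the difference between Rnaset2-/- hepatic Ly6C-low macrophages and KCs. The WT splenic libraries also held Xist and almost no Y-linked transcripts. Comparisons of organs in WT mice, and of KCs with WT hepatic Ly6C-low macrophages, were thus also unbalanced in sex, whose part was not tested. Summed dissociation stress genes also differed in hepatic Ly6C-high and Ly6C-low macrophages, at 26393 to 38624 RPM in WT and 1380 to 8105 RPM in Rnaset2-/- mice, and so they did in splenic Ly6C-high macrophages, at 16643 to 16736 and 8507 to 11627 RPM, while KCs held 1927 to 3242 RPM. Their part in the results was not tested. The Rnaset2 and Ly6c genes were not analysed here.

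LXR and its partner recognize 2 copies of a hexamer in the same direction with 4 bases between them. The RefSeq promoters of GRCm38.p6, with 250 bases before and 50 bases after each start, held 11 starts of 7 of the 10 genes, and Abcg1, Scd1 and Scd2 had no entry. The motif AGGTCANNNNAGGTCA was searched on both strands, with up to 3 mismatches among its 12 defined letters and with overlapping matches allowed. A match was found at 3 of the 11 starts, in Abca1, Fasn and the third of 3 starts of Srebf1, and 21.9% of all 32851 promoters held one. The 250 bases before these starts are shown because these 3 genes share a nearly identical match while their levels across the groups differed widely in range. Capitals mark the match, which reads in the direction of the motif on the strand opposite to the gene, and each sequence runs 5′ to 3′ on the strand of its gene, which is the minus strand.
Abca1, chr4:53159896-53160145: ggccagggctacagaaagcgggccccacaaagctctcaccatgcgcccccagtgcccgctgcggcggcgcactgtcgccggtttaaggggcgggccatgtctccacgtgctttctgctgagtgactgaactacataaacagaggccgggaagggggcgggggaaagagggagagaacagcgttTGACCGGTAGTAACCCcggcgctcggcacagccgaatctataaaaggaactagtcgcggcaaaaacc
Srebf1, chr11:60210472-60210721: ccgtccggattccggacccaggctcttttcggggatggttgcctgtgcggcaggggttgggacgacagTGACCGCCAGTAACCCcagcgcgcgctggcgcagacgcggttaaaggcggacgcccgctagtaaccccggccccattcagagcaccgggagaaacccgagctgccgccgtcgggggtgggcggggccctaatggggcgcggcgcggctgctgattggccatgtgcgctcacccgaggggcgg
Fasn, chr11:120824548-120824797: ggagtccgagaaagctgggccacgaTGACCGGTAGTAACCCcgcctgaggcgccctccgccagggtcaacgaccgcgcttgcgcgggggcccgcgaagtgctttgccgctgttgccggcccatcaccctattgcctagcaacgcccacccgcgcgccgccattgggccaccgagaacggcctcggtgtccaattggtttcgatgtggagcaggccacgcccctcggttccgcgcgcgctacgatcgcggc
Read on its own strand, the match was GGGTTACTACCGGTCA in Abca1 and Fasn and GGGTTACTGGCGGTCA in Srebf1, each with 3 mismatches to the motif. It ended 51 bases before the start of Abca1, 166 bases before that of Srebf1 and 209 bases before that of Fasn. The mean RPM of the highest group over that of the lowest was 35.8 for Abca1, 2.06 for Srebf1 and 2.21 for Fasn. In GENCODE vM21 on GRCm38, the genes lie at chr4:53030787-53159895, chr11:60199089-60222581 and chr11:120805846-120824547, so the third start of Srebf1 lies inside the gene.

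By mean RPM without scaling, KCs were the highest group for Abca1, Apoe, Mylip, Srebf1, Fasn and Scd1. Hepatic Ly6C-low macrophages of Rnaset2-/- mice were the highest for Abcg1, Pltp and Lpcat3. Libraries of the highest group overlapped those of the next for Abca1, Srebf1, Fasn, Abcg1, Pltp and Lpcat3. Scaling lowers KCs relative to Rnaset2-/- hepatic Ly6C-low macrophages, since their factors were 1.131 to 1.195 and 0.7528 to 0.8547, and the order after scaling is not given. Splenic Ly6C-high macrophages of Rnaset2-/- mice were the lowest for Abca1, Abcg1, Apoe, Mylip and Scd1. The widest range was that of Scd1, from a mean of 0.384 RPM in splenic Ly6C-high macrophages of Rnaset2-/- mice to 337 RPM in KCs. Lpcat3 varied least, from 27.5 RPM in hepatic Ly6C-high macrophages of WT mice to 53.6 RPM in Rnaset2-/- hepatic Ly6C-low macrophages. Over the 29 libraries, the highest Pearson correlations between members on the log2(RPM + 1) scale were 0.91 for Abca1 with Scd1, 0.91 for Mylip with Scd1 and 0.90 for Abcg1 with Pltp, and the lowest was 0.15 for Apoe with Lpcat3. These are descriptions of libraries that share groups and cell types.

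**Figure D1:**
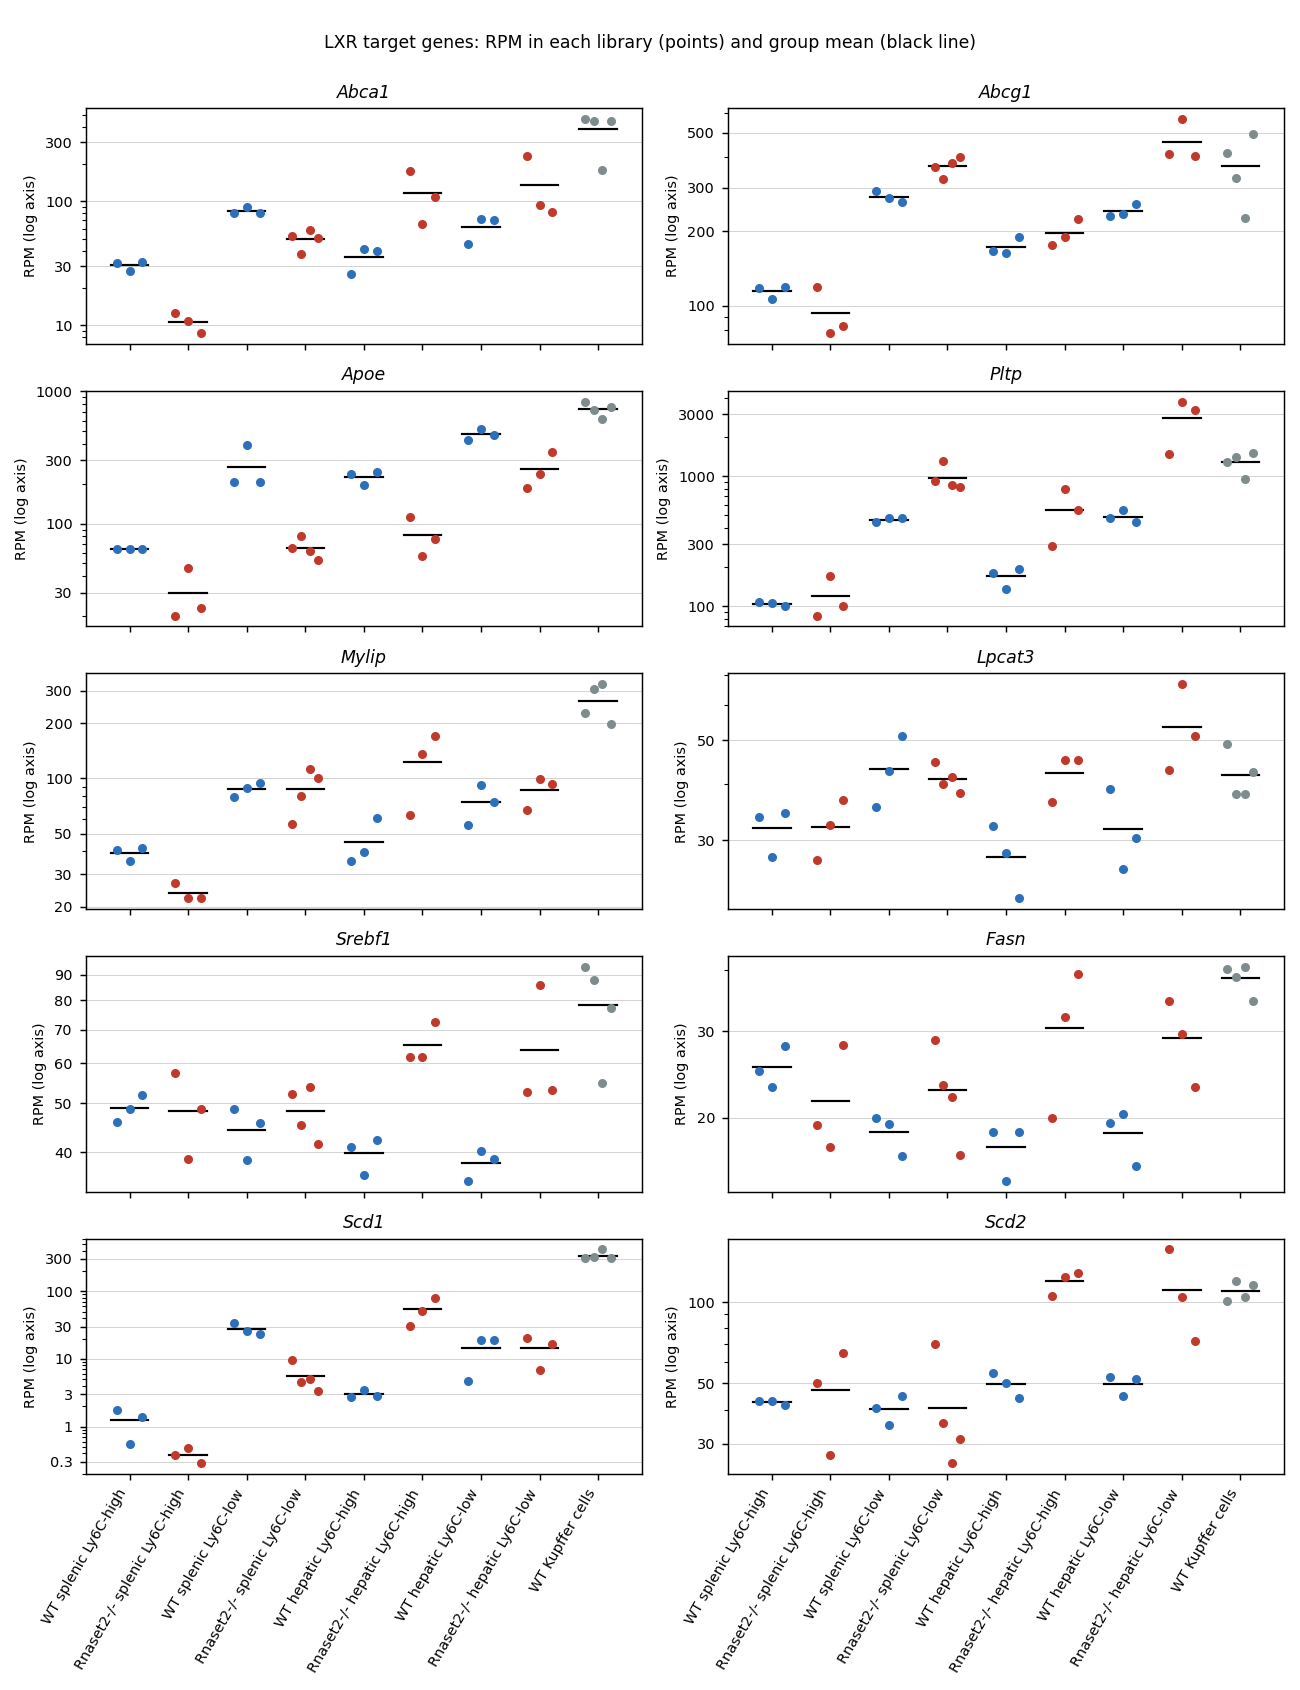
RPM of each gene (log axis, a separate scale for each gene) in the 9 groups, with WT in blue, Rnaset2-/- in red and WT KCs in gray. Each point is a library and each black line the group mean; Scd1 spans the widest range, and Apoe is lower in Rnaset2-/- mice in every pair of groups.

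Splenic Ly6C-high macrophages were compared first, to ask how RNase T2 deficiency was reflected in LXR targets of the less mature splenic subset. Abca1, Apoe and Mylip were lower in Rnaset2-/- mice, and none of the members was higher. Of 9 members tested, 0 were called higher and 3 lower, against 9.77% and 12.5% of all 10398 genes tested. The median log2 fold change was -0.13 for the members and 0.01 for all genes. Tested on deposited RPM, 31.2% of all calls were higher in place of 44%, and the members' counts stayed at 0 and 3. Markers of T and NK cells summed to 869 to 938 RPM in WT and 114 to 230.1 RPM in Rnaset2-/- mice, with 8 of 9 tested lower, and those of neutrophils to 30488 to 32727 and 33325 to 57947 RPM, with 7 of 10 higher. Erythroid markers were at 142 to 148 and 6.47 to 16.7 RPM. Their part in the results was not tested.

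Abca1 was at 31.6, 27.5 and 32.6 RPM in WT mice and at 12.6, 10.7 and 8.64 RPM in Rnaset2-/- mice. All 3 Rnaset2-/- libraries were below all WT libraries, and the level fell by 1.34 ± 0.157 on the log2 scale (SE, limma, adjusted p = 0.000146). Apoe was at 64.4, 64.6 and 63.7 RPM in WT mice and at 20.1, 46.3 and 23.1 RPM in Rnaset2-/- mice. The groups did not overlap, and the log2 fold change was -1.06 ± 0.257 (adjusted p = 0.00878 in limma). Mylip, whose product marks the LDL receptor for degradation, was at 40.9, 35.5 and 41.9 RPM in WT mice and at 27.0, 22.3 and 22.2 RPM in Rnaset2-/- mice. Its log2 fold change was -0.59 ± 0.124 (adjusted p = 0.00424 in limma), just past 1.5-fold. Without WT replicate 1 or 3 or Rnaset2-/- replicate 2 or 3, it was between -0.53 and -0.56, which is under 1.5-fold, and in a single fit of all libraries its adjusted p was 0.229.

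Abcg1 was at 107 to 119 RPM in WT mice and at 77.6 to 119 RPM in Rnaset2-/- mice (adjusted p = 0.282 in limma). Its groups overlapped, as did those of Pltp, Lpcat3, Scd2, Srebf1 and Fasn, whose adjusted p were between 0.428 and 0.647. Scd1 was too low to be tested. It was at 1.73, 0.555 and 1.40 RPM in WT mice and at 0.378, 0.490 and 0.285 RPM in Rnaset2-/- mice, and all Rnaset2-/- values were below all WT values.

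In splenic Ly6C-low macrophages, Apoe, Scd1 and Abca1 were lower and Pltp was higher in Rnaset2-/- mice. Of the 10 members, 1 was called higher and 3 lower, against 4.05% and 4.3% of all 10295 genes tested. The median log2 fold change was -0.04 for the members and 0.01 for all genes. With replicates 1 and 2 of Rnaset2-/- mice left out, an alternative chosen after seeing the data, 1 was higher and 2 were lower. Endothelial markers summed to 271 to 325 RPM in WT and 1461 to 2203 RPM in Rnaset2-/- mice, erythroid markers to 55.3 to 129 and 88.2 to 1293 RPM and markers of T and NK cells to 109 to 174 and 22.2 to 100.3 RPM, and their part was not tested.

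Apoe was at 207, 390.1 and 207.0 RPM in WT mice and at 65.2, 80.4, 62.3 and 53.1 RPM in Rnaset2-/- mice. All 4 Rnaset2-/- libraries were below all WT libraries, and the log2 fold change was -1.96 ± 0.234 (adjusted p = 0.00282 in limma). The hepatocyte markers summed to at most 1.85 RPM in every splenic library. Scd1, which makes monounsaturated fatty acids, was at 33.9, 26.0 and 23.7 RPM in WT mice and at 9.53, 4.54, 5.04 and 3.31 RPM in Rnaset2-/- mice. These groups were also apart, with a change of -2.19 ± 0.277 on the log2 scale (adjusted p = 0.00368 in limma), or 4.55-fold lower after the added 1. The calls for Apoe and Scd1 held without any single library.

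Pltp, which transfers phospholipid between lipoproteins, was at 442, 474 and 479 RPM in WT mice and at 912, 1300.0, 854 and 822 RPM in Rnaset2-/- mice. Its log2 fold change was 1.05 ± 0.164 (adjusted p = 0.00956 in limma), and without WT replicate 3 the adjusted p was 0.0559. Abca1 was at 80.2, 90.0 and 80.3 RPM in WT mice and at 52.4, 37.4, 58.6 and 50.2 RPM in Rnaset2-/- mice. The groups did not overlap (log2 fold change -0.75 ± 0.17, adjusted p = 0.0323 in limma). The adjusted p was between 0.0536 and 0.13 without Rnaset2-/- replicate 4 or without any of the 3 WT replicates, and 0.184 in a single fit of all libraries. In replicates 3 and 4 of Rnaset2-/- mice alone, the fall of Abca1 was 0.55 on the log2 scale, under 1.5-fold.

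Abcg1 did not follow Abca1. It was at 292, 271 and 261 RPM in WT mice and at 362, 326, 376 and 398 RPM in Rnaset2-/- mice. Every Rnaset2-/- library was above every WT library, but the change of 0.42 ± 0.125 on the log2 scale was under 1.5-fold (adjusted p = 0.0698 in limma). Mylip, Lpcat3, Scd2, Srebf1 and Fasn overlapped between the genotypes, with adjusted p between 0.35 and 0.953. Scd2 was highest in Rnaset2-/- replicate 1, at 69.7 RPM, against 25.3 to 35.7 RPM in the other 3.

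In hepatic Ly6C-high macrophages, Scd1, Abca1, Pltp and Scd2 were higher and Apoe was lower in Rnaset2-/- mice. Of the 10 members, 4 were called higher and 1 lower, against 15.7% and 14.9% of all 10957 genes tested. The median log2 fold change was 0.68 for the members and 0.01 for all genes. Without scaling of the RPM, the median of all genes moved to 0.31, 6 members were higher and 1 was lower, and the share of calls that were higher was 74.6% in place of 51.2%. Markers of T and NK cells summed to 21.3 to 31.7 RPM in WT and 501 to 799.5 RPM in Rnaset2-/- mice, with 9 of 9 tested higher. Endothelial markers were at 92.9 to 134 and 497 to 3239 RPM (9 of 9 higher), erythroid markers at 2.86 to 6.42 and 97.5 to 315 RPM (6 of 6 higher) and B and plasma cell markers at 63.4 to 115 and 163 to 997 RPM (6 of 7 higher). Their part in the results was not tested.

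Scd1 was at 2.70, 3.50 and 2.86 RPM in WT mice and at 30.5, 51.6 and 80.8 RPM in Rnaset2-/- mice. The lowest Rnaset2-/- library was far above the highest WT library, and the log2 fold change was 3.40 ± 0.298 (adjusted p = 0.000393 in limma). Hepatocyte markers were at 37.5 to 67.5 RPM in WT and 29.2 to 88.5 RPM in Rnaset2-/- libraries, and the library with the fewest of them in Rnaset2-/- mice, replicate 2, held 51.6 RPM of Scd1. KC markers were at 3.58 to 4.55 RPM in WT and at 169 to 416 RPM in Rnaset2-/- mice, of which the LXR target Cd5l gave 152 to 348 RPM. Clec4f, which defines KCs, was at most 0.167 RPM in WT and 1.78 to 4.08 RPM in Rnaset2-/- mice (log2 fold change 1.73, adjusted p = 0.00596 in limma), and Vsig4 was also higher (2.70, adjusted p = 0.00128). Vsig4 was at most 0.54 RPM in WT mice, so Clec4f and Vsig4 passed the filter of 1 RPM through the Rnaset2-/- libraries alone. The part of other cells in the difference of Scd1 was not tested. Scd2, the other desaturase gene of the set, lies 87.6 kb from Scd1 on chromosome 19. Scd2 was at 54.6, 50.3 and 44.0 RPM in WT mice and at 105, 124 and 128 RPM in Rnaset2-/- mice. The groups were apart (log2 fold change 0.93 ± 0.157, adjusted p = 0.00471 in limma).

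Apoe moved the other way. It was at 237, 196 and 244 RPM in WT mice and at 112, 56.7 and 77.0 RPM in Rnaset2-/- mice. Its log2 fold change was -1.81 ± 0.298 (adjusted p = 0.0043 in limma). The calls for Scd1, Scd2 and Apoe held without any single library.

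Abca1 was at 25.8, 41.6 and 39.4 RPM in WT mice and at 176, 66.0 and 107 RPM in Rnaset2-/- mice. The groups did not overlap (log2 fold change 1.29 ± 0.389, adjusted p = 0.0386 in limma), but the adjusted p was 0.0804 to 0.138 without Rnaset2-/- replicate 3 or any of the WT replicates. Pltp was at 179, 137 and 192 RPM in WT mice and at 291, 806 and 552 RPM in Rnaset2-/- mice. Its log2 fold change was 1.27 ± 0.327 (adjusted p = 0.0228 in limma), with an adjusted p of 0.0571 to 0.0784 without Rnaset2-/- replicate 2 or 3 or any of the WT replicates.

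Mylip was at 35.4, 39.5 and 60.6 RPM in WT mice and at 62.9, 136 and 171 RPM in Rnaset2-/- mice. It missed the threshold narrowly (log2 fold change 1.04 ± 0.341, adjusted p = 0.0511 in limma), and without Rnaset2-/- replicate 1, which was the lowest, its log2 fold change was 1.40 (adjusted p = 0.0011). In RPM before scaling, Fasn, Srebf1 and Lpcat3 had no overlap between the genotypes but were not called. Fasn was at 14.9 to 18.7 RPM in WT against 19.96 to 39.3 RPM in Rnaset2-/- mice (adjusted p = 0.213 in limma). Srebf1 was at 36.0 to 42.3 against 61.7 to 72.4 RPM (adjusted p = 0.121). Lpcat3 was at 22.3 to 32.2 against 36.5 to 45.3 RPM (adjusted p = 0.254). Scaling narrowed these gaps, with factors of 0.869 to 0.932 in WT and 1.005 to 1.208 in Rnaset2-/- libraries. Overlap after scaling is not given. Without Rnaset2-/- replicate 1, Fasn changed by 0.63 on the log2 scale (adjusted p = 0.0385 in limma). Abcg1 overlapped and had an adjusted p of 0.559 in limma.

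In hepatic Ly6C-low macrophages, in which the study examined LXR target genes, Pltp, Scd2, Abcg1, Lpcat3 and Srebf1 were higher and Apoe was lower in Rnaset2-/- mice. Of the 10 members, 5 were called higher and 1 lower, against 20.2% and 22.5% of all 10808 genes tested. The median log2 fold change was 0.68 for the members and 0.01 for all genes. KC markers were at 101 to 136 RPM in the WT and at 5703 to 10819 RPM in the Rnaset2-/- libraries. Cd5l alone, itself an LXR target, gave 5478 to 9639 RPM in the latter. The KC gene Clec4f was at 4.01 to 15.1 RPM in WT and 17.7 to 63.3 RPM in Rnaset2-/- mice, against 1674 to 5470.5 RPM in KCs. Clec4f, Timd4 and Vsig4 were higher in Rnaset2-/- mice (log2 fold change 2.31, 3.80 and 2.51, adjusted p = 0.0108, 0.00186 and 0.000523 in limma). Timd4 was at most 0.911 RPM in WT mice and passed the filter of 1 RPM through the Rnaset2-/- libraries alone. Folr2, Fabp7 and Marco were not called. Markers of T and NK cells were at 7.70 to 9.33 and 53.1 to 155 RPM, erythroid markers at 3.73 to 7.76 and 68.7 to 179 RPM and endothelial markers at 287 to 532 and 1416 to 4570.3 RPM in WT and Rnaset2-/- mice. Their part in the results was not tested.

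Pltp was at 478, 553 and 441 RPM in WT mice and at 1485, 3755 and 3257 RPM in Rnaset2-/- mice. It was the member with the largest rise here, with a change of 2.38 ± 0.339 on the log2 scale (adjusted p = 0.000945 in limma). Abcg1 was at 232, 235 and 259 RPM in WT mice and at 409, 568 and 401 RPM in Rnaset2-/- mice. The groups were apart (log2 fold change 0.87 ± 0.177, adjusted p = 0.00516 in limma). The calls for Pltp and Abcg1 held without any single library.

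Abca1 was at 45.1, 71.5 and 70.4 RPM in WT mice and at 230.0, 92.7 and 81.8 RPM in Rnaset2-/- mice. The groups did not overlap, but replicate 1 set the mean of Rnaset2-/- mice, and Abca1 was not called (log2 fold change 0.93 ± 0.39, adjusted p = 0.0848 in limma). Apoe was at 431, 520.1 and 464 RPM in WT mice and at 186, 235 and 349 RPM in Rnaset2-/- mice. It fell by 0.96 ± 0.254 on the log2 scale (adjusted p = 0.016 in limma), with an adjusted p of 0.0548 to 0.0652 without Rnaset2-/- replicate 2 or WT replicate 2 or 3.

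Scd2 was at 52.8, 44.9 and 51.8 RPM in WT mice and at 157, 104 and 71.5 RPM in Rnaset2-/- mice (log2 fold change 1.03 ± 0.261, adjusted p = 0.0134 in limma), and without WT replicate 2 its adjusted p was 0.053. Scd1, in contrast, was at 4.72, 19.1 and 19.1 RPM in WT mice and at 20.2, 6.85 and 16.5 RPM in Rnaset2-/- mice. These groups overlapped, and its difference was 0.07 ± 0.571 on the log2 scale (adjusted p = 0.933 in limma).

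Srebf1 was at 35.1, 40.3 and 38.8 RPM in WT mice and at 52.6, 85.9 and 53.1 RPM in Rnaset2-/- mice (log2 fold change 0.66 ± 0.213, adjusted p = 0.0361 in limma). Lpcat3 was at 39.1, 25.9 and 30.3 RPM in WT mice and at 43.0, 66.7 and 51.1 RPM in Rnaset2-/- mice (log2 fold change 0.69 ± 0.214, adjusted p = 0.0297 in limma). Both genes were above WT in every Rnaset2-/- library, yet these calls were fragile. The adjusted p of Srebf1 was 0.0666 to 0.122 without Rnaset2-/- replicate 2 or any WT replicate, and that of Lpcat3 was 0.0541 to 0.0992 without Rnaset2-/- replicate 2 or 3 or WT replicate 2 or 3.

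Fasn was at 19.5, 20.3 and 15.9 RPM in WT mice and at 34.6, 29.6 and 23.1 RPM in Rnaset2-/- mice, without overlap (log2 fold change 0.57 ± 0.205, adjusted p = 0.0516 in limma). Without Rnaset2-/- replicate 3, its log2 fold change was 0.71 (adjusted p = 0.0299). Mylip overlapped between the genotypes (adjusted p = 0.559 in limma).

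**Figure D2:**
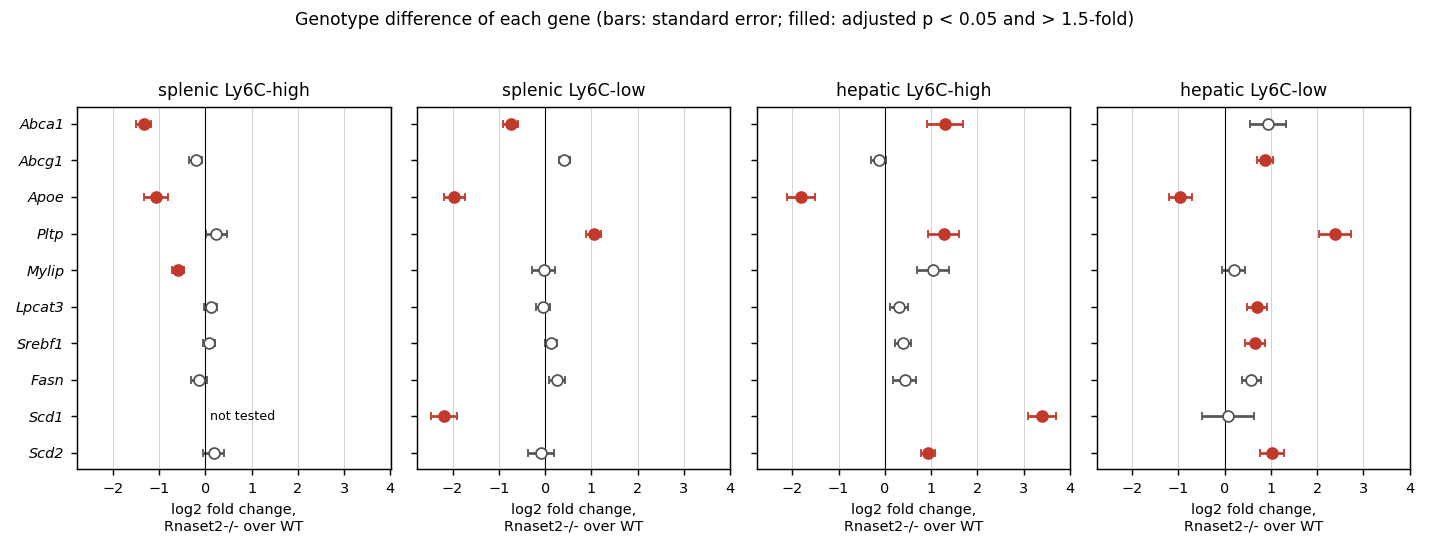
Log2 fold change of Rnaset2-/- over WT mice for each gene in the 4 macrophage populations, with bars for the standard error and filled points for called genes. Apoe is below 0 in all 4, Abca1 lies on opposite sides in spleen and liver, and Scd1 ranges from -2.19 in splenic Ly6C-low to 3.40 in hepatic Ly6C-high macrophages.

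The difference between the organs was tested itself, as an interaction of genotype and organ. It carries the imbalance of sex as well, since Xist had an interaction of -8.38 in Ly6C-high and -6.91 in Ly6C-low macrophages (adjusted p = 6.94e-10 and 0.0386 in limma), and the effects of sex cannot be told apart from it. In Ly6C-high macrophages, the genotype difference of Scd1 was higher in the liver than in the spleen by 4.04 ± 0.398 on the log2 scale (limma, adjusted p = 1.64e-05). That of Abca1 was higher by 2.66 ± 0.458 (adjusted p = 0.001 in limma) and that of Mylip by 1.67 ± 0.389 (adjusted p = 0.00605). Scd1 passed the filter of 1 RPM in 3 libraries here through the liver. Its splenic values were at most 1.73 RPM in WT and 0.490 RPM in Rnaset2-/- mice. In all, 3 members had a higher and 0 a lower genotype difference in the liver, against 17.6% and 16% of 11398 genes. On RPM as deposited, 7 members were called, all of them higher, while the median of all genes moved to 0.35 and 78.9% of all calls were higher in place of 52.4%. Without replicate 1 of hepatic Ly6C-high macrophages of Rnaset2-/- mice, 5 were higher, with Pltp and Fasn added, and 1, Apoe, was lower. Pltp was also called without splenic Rnaset2-/- replicate 2 (1.38, adjusted p = 0.0254 in limma) and Scd2 without splenic Rnaset2-/- replicate 3 (1.03, adjusted p = 0.0149).

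In Ly6C-low macrophages, 4 members had a higher genotype difference in the liver and 0 a lower, against 12.1% and 14.7% of 11308 genes. The difference was 2.27 ± 0.686 for Scd1 (adjusted p = 0.0268 in limma), 1.68 ± 0.448 for Abca1 (adjusted p = 0.0144), 1.35 ± 0.389 for Pltp (adjusted p = 0.0214) and 0.75 ± 0.248 for Lpcat3 (adjusted p = 0.039). The call for Abca1 held without any single library. That for Lpcat3 was lost without any of 9 of the 13 libraries (adjusted p = 0.0532 to 0.112), that for Pltp without hepatic Rnaset2-/- replicate 2 or replicate 3 of either WT group (adjusted p = 0.0503 to 0.0546), and that for Scd1 without hepatic Rnaset2-/- replicate 1 or 3 or splenic WT replicate 1 (adjusted p = 0.0543 to 0.0648). Apoe, lower in Rnaset2-/- mice in both organs, had a difference of 1.01 ± 0.373 (adjusted p = 0.0606 in limma), and of 1.22 without hepatic Rnaset2-/- replicate 1 (adjusted p = 0.0265). Scd2 was called without hepatic Rnaset2-/- replicate 3 (1.36, adjusted p = 0.029 in limma) or splenic Rnaset2-/- replicate 1 (1.38, adjusted p = 0.00589).

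Between the subsets of the liver, the genotype difference of Scd1 was lower in Ly6C-low than in Ly6C-high macrophages by 3.31 ± 0.715 on the log2 scale (limma, adjusted p = 0.0136), and that of Abcg1 was higher by 1.02 ± 0.229 (adjusted p = 0.0161). Thus 1 member was higher and 1 lower, against 5.08% and 5.25% of 12626 genes. Tested on deposited RPM, the median of all genes moved to -0.26, 27.9% of all calls were higher in place of 49.2%, and Abcg1 had an adjusted p of 0.083. Pltp was called without Ly6C-low Rnaset2-/- replicate 1 (1.55, adjusted p = 0.0364 in limma) and Apoe without Ly6C-high Rnaset2-/- replicate 1 (1.201, adjusted p = 0.0303). With replicates 2 and 3 of Rnaset2-/- mice alone, 3 were higher, Abcg1, Apoe and Pltp, and 1 lower. In the spleen, 0 were higher and 1, Scd1, was lower, against 8.35% and 6.38% of 10838 genes. This difference of -1.61 ± 0.388 (adjusted p = 0.0163 in limma) rested on a gene near the floor in Ly6C-high macrophages, and its adjusted p was 0.183 with an added value of 0.1 and 0.439 in edgeR on the recovered reads. Without scaling of the RPM, 71.8% of all calls were higher in place of 56.7%, and Abcg1 was called (0.73, adjusted p = 0.0233 in limma). Abcg1 was also called without Ly6C-low Rnaset2-/- replicate 1 or 2 or Ly6C-high Rnaset2-/- replicate 1 (0.63 to 0.77), as were Mylip without Ly6C-low replicate 1 (0.76), Abca1 without Ly6C-low replicate 2 (0.70) and Pltp without Ly6C-high replicate 2 of Rnaset2-/- mice (1.11).

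The subsets were then compared within each genotype, since Ly6C-high cells give rise to Ly6C-low cells. In WT spleen, Abca1, Abcg1, Apoe, Pltp, Mylip and Scd1 were higher in Ly6C-low than in Ly6C-high macrophages. Of the 10 members, 6 were higher and 0 lower, against 13.8% and 19.8% of 10521 genes. The log2 fold changes were 3.83 ± 0.223 for Scd1, 2.29 ± 0.0815 for Pltp and 2.12 ± 0.209 for Apoe, with adjusted p of 3.9e-07, 1.97e-08 and 1.51e-05 in limma. Abca1, Abcg1 and Mylip differed by 1.57, 1.40 and 1.27 on the log2 scale. Scd1 was at 0.555 to 1.73 RPM in Ly6C-high macrophages, near the 1 RPM of the filter. Srebf1, Fasn and Scd2 were not called (adjusted p = 0.999, 0.0892 and 0.728 in limma), and Lpcat3 was 0.56 higher, under 1.5-fold, with 0.60 to 0.70 and a call without Ly6C-low replicate 1 or Ly6C-high replicate 1 or 3. On RPM as deposited, 29.8% of all calls were higher in place of 41.1%, with the same counts of members.

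In the spleen of Rnaset2-/- mice, the same 6 genes were called higher in Ly6C-low macrophages and 0 lower, against 13% and 15.1% of 10309 genes. Scd1 was at most 0.490 RPM in the Ly6C-high libraries and passed the filter of 1 RPM through the Ly6C-low libraries alone. Pltp differed most, by 3.07 ± 0.264 on the log2 scale (adjusted p = 0.000228 in limma), and Apoe least of the 6, by 1.19 ± 0.284 (adjusted p = 0.0142). Without Rnaset2-/- splenic Ly6C-high replicate 1 or 3, the adjusted p of Apoe was 0.0538 or 0.0659.

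In the liver of WT mice, Apoe, Pltp and Scd1 were higher in Ly6C-low macrophages, that is 3 higher and 0 lower, against 5.24% and 4.84% of 11688 genes. The log2 fold changes were 1.42 ± 0.183 for Pltp (adjusted p = 0.00132 in limma), 0.95 ± 0.161 for Apoe (adjusted p = 0.00565) and 1.63 ± 0.442 for Scd1 (adjusted p = 0.0481). Hepatocyte markers were also higher in 2 Ly6C-low libraries, at 275 and 233 RPM, and these held 19.1 RPM of Scd1 each against 4.72 RPM in the library with 53.0 RPM of the markers. The part of hepatocyte RNA in the level of Scd1 was not tested, and the adjusted p of Scd1 was 0.097 to 0.192 without Ly6C-low replicate 2 or 3 or any Ly6C-high replicate. Abca1 was called without Ly6C-low replicate 1 (log2 fold change 0.90, adjusted p = 0.0358 in limma). Tested on deposited RPM, 65.4% of all calls were higher in place of 52%, with 3 members higher and 0 lower.

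In the liver of Rnaset2-/- mice, Abcg1, Apoe and Pltp were higher and Scd1 was lower in Ly6C-low macrophages, that is 3 higher and 1 lower, against 8.75% and 8.26% of 10895 genes. Pltp differed by 2.54 ± 0.452 on the log2 scale (adjusted p = 0.0139 in limma), Apoe by 1.81 ± 0.371 (adjusted p = 0.0208) and Abcg1 by 1.37 ± 0.187 (adjusted p = 0.00644), while Scd1 fell by 1.69 ± 0.453 (adjusted p = 0.0449). All 4 calls were also made with the pairing of libraries by replicate number and without replicate 1 of both subsets, whereas Scd1 had an adjusted p of 0.0527 in edgeR on the recovered reads. Without scaling of the RPM, 38.8% of all calls were higher in place of 51.4%, with 3 members higher and 1 lower. Leaving out Ly6C-low replicate 2 or 3 or Ly6C-high replicate 2 or 3 left 1 or 2 members called, and the call for Abcg1 held in each case.

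**Figure D3:**
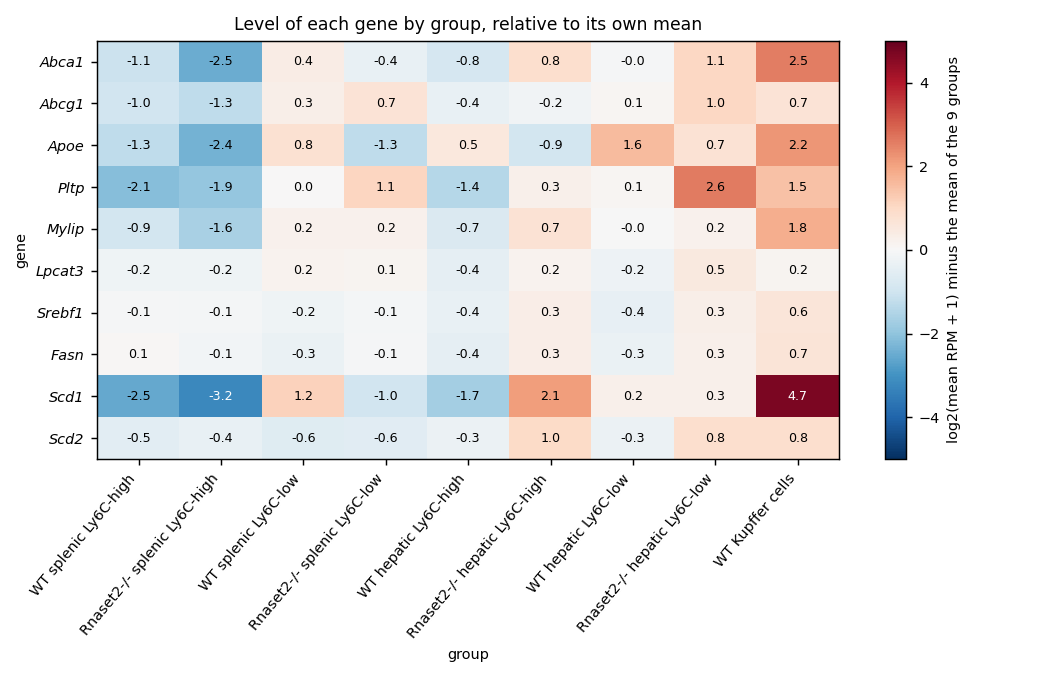
Log2(mean RPM + 1) of each gene (rows) in each group (columns) minus the gene's mean over the 9 groups, from blue for lower to red for higher. Scd1 in KCs is 4.7 above its mean, and Lpcat3, Srebf1 and Fasn stay within 1 of theirs.

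Between the organs, hepatic Ly6C-high macrophages of WT mice had higher Abcg1, Apoe, Pltp and Scd1 than splenic ones, that is 4 higher and 0 lower, against 17.1% and 20.7% of 10681 genes. Apoe differed most, by 2.07 ± 0.127 on the log2 scale (adjusted p = 2.56e-06 in limma). On RPM as deposited, 4 were also higher and 0 lower, although the share of calls over all genes that were higher was 25.4% in place of 45.2%, and in a single fit of all libraries it was 60.7%. Abca1 was called without hepatic replicate 1 (log2 fold change 0.66, adjusted p = 0.005 in limma). Hepatic Ly6C-low macrophages of WT mice had higher Apoe, by 0.92 ± 0.226 (adjusted p = 0.0088 in limma), with 1 higher and 0 lower, against 18.8% and 15.3% of 10611 genes. Scd1 was called lower without hepatic replicate 2 (log2 fold change -1.38, adjusted p = 0.0337 in limma) and in a single fit of all libraries, where 69.8% of all calls were higher in place of 55.1%. Hepatocyte markers, at least 37.5 RPM in these hepatic libraries and at most 1.19 RPM in the splenic ones, moved with Apoe, and their part was not tested.

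In Rnaset2-/- mice, 7 members were higher and 0 lower in hepatic than in splenic Ly6C-high macrophages, against 15.2% and 12.9% of 10760 genes. The log2 fold change of Xist was -8.59 in these groups and -7.25 in Ly6C-low macrophages (adjusted p = 1.23e-06 and 0.0198 in limma). Scd1 differed by 5.17 ± 0.3 on the log2 scale (adjusted p = 0.000106 in limma), Abca1 by 3.16 ± 0.382 (adjusted p = 0.00105) and Mylip by 2.14 ± 0.293 (adjusted p = 0.00182). Scd1 was at only 0.285 to 0.490 RPM in the splenic libraries, so it passed the filter of 1 RPM through the hepatic libraries alone. Abcg1, Apoe, Scd2 and Pltp were the other members called. For Apoe, the adjusted p was 0.0814 to 0.13 without hepatic replicate 3 or splenic replicate 1 or 3. In Ly6C-low macrophages of Rnaset2-/- mice, Abca1, Apoe, Scd1, Scd2 and Pltp were higher in the liver, that is 5 higher and 0 lower, against 18.5% and 17.6% of 10559 genes. Apoe differed most, by 1.96 ± 0.239 (adjusted p = 0.000676 in limma). Without splenic replicate 2, 3 members were called, since Abca1 and Scd1 had adjusted p of 0.0524 and 0.1. In replicates 3 and 4 of the splenic group alone, 4 members were called, and Abca1 had an adjusted p of 0.0886. Scd1 also had an adjusted p of 0.0873 to 0.137 without hepatic replicate 1 or 3 or splenic replicate 3 or 4.

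KCs of WT mice had higher Scd1, Abca1, Mylip and Pltp than hepatic Ly6C-low macrophages of WT mice, that is 4 higher and 0 lower, against 26% and 24% of 12515 genes. Scd1 was at 309, 318, 417 and 306 RPM in KCs (log2 fold change 4.10 ± 0.402, adjusted p = 1.58e-05 in limma). Abca1 was at 460.0, 444, 179 and 444 RPM in KCs (log2 fold change 1.94 ± 0.334, adjusted p = 0.000665). The scaling weighed heavily here, because on RPM as deposited the median of all genes moved to 0.55, 8 members were higher and 0 lower, and 79.8% of all calls were higher in place of 52%. Scd2 was called without KC replicate 1 (log2 fold change 0.59, adjusted p = 0.0146 in limma) and Srebf1 without KC replicate 3 (0.59, adjusted p = 0.0107). Replicate 3, with the most hepatocyte markers, was the highest KC library for Scd1, Mylip and Fasn and the lowest for Abca1, Abcg1, Apoe, Srebf1 and Pltp. Other markers were higher in KCs as well, with T and NK cell markers at 318 to 816 RPM against 7.70 to 9.33 RPM, stellate cell and fibroblast markers at 204 to 524 against 6.12 to 17.7 RPM, endothelial markers at 3973 to 8589 against 287 to 532 RPM and B and plasma cell markers at 661 to 1238 against 74.1 to 103 RPM. Dissociation stress genes were lower, and the part of these in the results was not tested.

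Hepatic Ly6C-low macrophages of Rnaset2-/- mice were also compared with KCs, and the log2 fold change of Xist was -9.36 (adjusted p = 2.25e-08 in limma). Pltp, Abcg1 and Lpcat3 were higher than in KCs and Scd1, Mylip and Apoe were lower, that is 3 higher and 3 lower, against 19.4% and 26.3% of 12127 genes. Scd1 was lower by 4.05 ± 0.331 on the log2 scale in Rnaset2-/- hepatic Ly6C-low macrophages, with means of 14.5 and 337 RPM (adjusted p = 4.62e-05 in limma). Pltp differed by 1.58 ± 0.354 (adjusted p = 0.00578 in limma). Tested on deposited RPM, 1 was higher, Pltp, and 4 were lower, with Abca1 added. The median of all genes moved to -0.56 there, and 15.9% of all calls were higher in place of 42.5%. Abcg1 had an adjusted p of 0.0583 or 0.0853 without KC replicate 2 or Rnaset2-/- replicate 2, and Apoe of 0.0506 without the latter. Abca1 was called lower without Rnaset2-/- replicate 1 or KC replicate 3 (log2 fold change -1.46 and -1.38, adjusted p = 0.0125 and 0.013 in limma), and Scd2 higher without Rnaset2-/- replicate 3 (0.71, adjusted p = 0.0308).

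**Figure D4:**
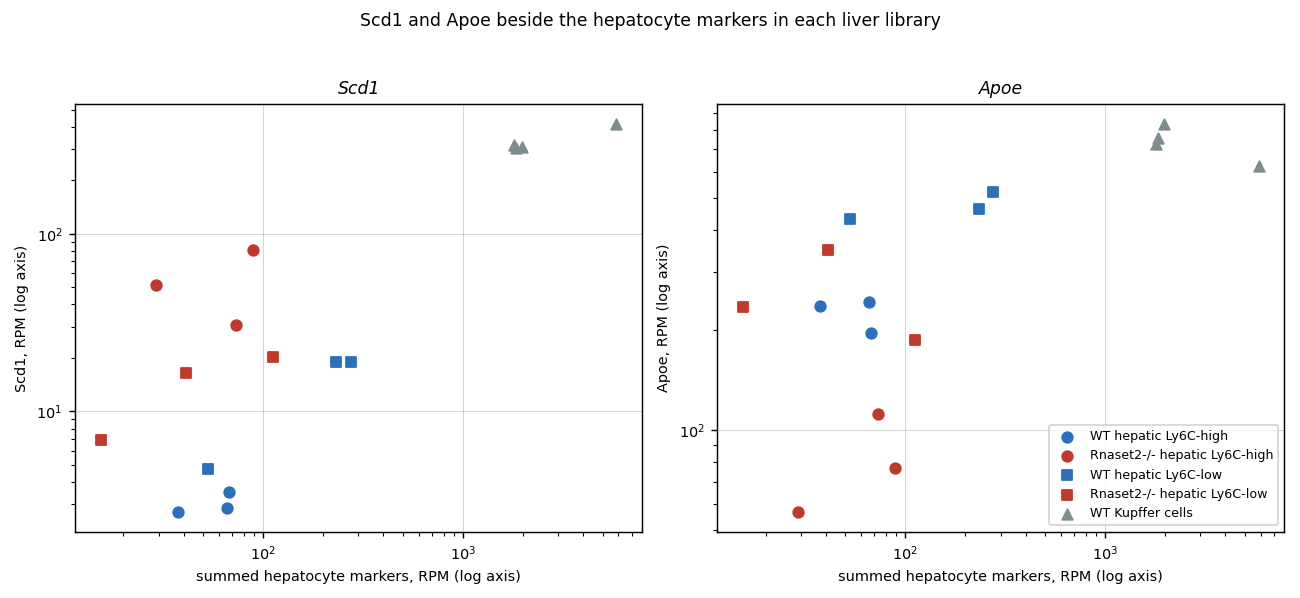
RPM of Scd1 (left) and Apoe (right) against the summed RPM of 11 hepatocyte markers in each of the 16 liver libraries (both axes log), with WT in blue, Rnaset2-/- in red and KCs in gray, circles for Ly6C-high and squares for Ly6C-low. KCs hold 1808 RPM of the markers or more, and the 3 Ly6C-high libraries of Rnaset2-/- mice lie above those of WT mice for Scd1 at overlapping marker levels.

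Other genes of the pathway were described by lists, whose counts in the 4 genotype comparisons stand against 9.77% of all genes higher and 12.5% lower in splenic Ly6C-high, 4.05% and 4.3% in splenic Ly6C-low, 15.7% and 14.9% in hepatic Ly6C-high and 20.2% and 22.5% in hepatic Ly6C-low macrophages. LXRα (Nr1h3) was at a mean of 43.3 RPM in hepatic Ly6C-low macrophages of WT mice and at 796 RPM in those of Rnaset2-/- mice, a log2 fold change of 4.11 ± 0.228 (adjusted p = 1.56e-05 in limma), and KCs held 247 RPM. It was also higher in splenic Ly6C-low (log2 fold change 1.35, adjusted p = 0.00971) and splenic Ly6C-high macrophages (0.73, adjusted p = 0.00874) of Rnaset2-/- mice, in which Abca1 and Apoe were lower. In hepatic Ly6C-high macrophages its log2 fold change was 0.55 (adjusted p = 0.267 in limma). LXRβ (Nr1h2) was not called in any of the 4 populations. Among 8 LXR receptors and partners, 2 were higher and 0 lower in each splenic subset, 1 and 0 in hepatic Ly6C-high and 3 and 1 in hepatic Ly6C-low macrophages, each as Rnaset2-/- against WT mice. Rxra was 2.44 higher on the log2 scale in hepatic Ly6C-low macrophages (adjusted p = 0.000181 in limma), and the coactivator Ncoa1 was 0.86 lower there (adjusted p = 0.0207). The corepressor Ncor1 was 1.02 higher in splenic Ly6C-high macrophages (adjusted p = 0.000511 in limma). Nrip1, another partner, was higher in hepatic Ly6C-low, splenic Ly6C-low and hepatic Ly6C-high macrophages (2.62, 1.24 and 0.65, adjusted p = 0.000136, 0.0177 and 0.0496 in limma).

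Of 11 further LXR targets in the table, 1 was higher and 5 were lower of 8 tested in splenic Ly6C-high, 1 and 2 of 8 in splenic Ly6C-low, 2 and 3 of 9 in hepatic Ly6C-high and 4 and 3 of 9 in hepatic Ly6C-low macrophages, each as Rnaset2-/- against WT mice. The median log2 fold changes were -0.90, -0.50, -0.56 and -0.55. Cd5l, which encodes the secreted protein AIM, was at means of 54.8 and 7290 RPM in hepatic Ly6C-low macrophages of WT and Rnaset2-/- mice (log2 fold change 6.98, adjusted p = 2.43e-06 in limma), and it was also higher in hepatic Ly6C-high (6.32, adjusted p = 0.000147) and splenic Ly6C-low macrophages (2.53, adjusted p = 0.0139). In splenic Ly6C-high macrophages its log2 fold change was -1.24 (adjusted p = 0.00247 in limma), while Tgm2 was 0.66 higher (adjusted p = 0.0115), as it was by 1.38 in hepatic Ly6C-low macrophages (adjusted p = 0.00182). Mertk, a receptor for apoptotic cells, was also higher in both hepatic subsets (2.13 and 2.59 on the log2 scale, adjusted p = 0.0214 and 0.000696 in limma) and lower in splenic Ly6C-high macrophages (-1.90, adjusted p = 0.000148). Arl4c was lower in all 4 populations, by 0.71 to 1.54 on the log2 scale. Lpl, the lipoprotein lipase, was 3.16 higher in hepatic Ly6C-low macrophages (adjusted p = 8.96e-05 in limma), and Mlxipl was 3.04 lower there (adjusted p = 0.000102).

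Among 12 other lipogenic genes, 1 was higher and 1 lower of 8 tested in splenic Ly6C-high, 0 and 0 of 9 in splenic Ly6C-low, 3 and 1 of 10 in hepatic Ly6C-high and 3 and 3 of 11 in hepatic Ly6C-low macrophages, each as Rnaset2-/- against WT mice. Acaca, the first enzyme of fatty acid synthesis, was higher in both hepatic subsets (1.74 and 1.71 on the log2 scale, adjusted p = 0.041 and 0.0112 in limma), although it was at 8.14 and 9.16 RPM in Rnaset2-/- mice. Fads1 was 2.20 higher and Me1 2.04 lower in hepatic Ly6C-high macrophages (adjusted p = 0.00253 and 0.00272 in limma). In hepatic Ly6C-low macrophages, the lower genes were Dgat2, Me1 and Fads2, by 2.69, 1.91 and 1.38 on the log2 scale, whereas in splenic Ly6C-high macrophages Dgat2 was 1.23 higher and Fads2 1.43 lower (adjusted p = 0.000214 and 0.000649 in limma). Among 8 genes of oxysterol and desmosterol metabolism, 0 were higher and 2 lower of 5 tested in hepatic Ly6C-high and 1 and 3 of 6 in hepatic Ly6C-low macrophages, with 0 higher and 1 lower in each splenic subset. Ch25h was 1.96 lower in hepatic Ly6C-low and Cyp27a1 1.14 lower in splenic Ly6C-high macrophages (adjusted p = 0.00135 and 0.00323 in limma).

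Of 10 genes of sterol uptake and synthesis, 9 were tested, and 1 was higher and 5 were lower in hepatic Ly6C-high and 1 and 4 in hepatic Ly6C-low macrophages when Rnaset2-/- were compared with WT mice, against 0 and 2 in splenic Ly6C-high and 0 and 0 in splenic Ly6C-low macrophages. Insig1, which restrains sterol synthesis, was 2.71 and 1.47 lower in the hepatic subsets (adjusted p = 0.000148 and 0.00114 in limma). Srebf2 was 0.85 and 1.08 higher (adjusted p = 0.031 and 0.00917 in limma).

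Over the means of the 9 groups, the genes most like each member among 9676 genes were ranked by Pearson correlation on the log2(mean RPM + 1) scale. The first 3 were Nubpl, Tmem200b and Dnmt3a for Abca1, Abcg3, Epb41l1 and Pdgfb for Abcg1, and Igip, Nop56 and Appl2 for Apoe. They were Nsfl1c, Acp5 and Ly96 for Pltp, Rcn3, Tbc1d12 and Ikbip for Mylip, and Zbtb3, Tgfbr2 and Vac14 for Lpcat3. Flywch1, Pgpep1 and Wdr24 ranked first for Srebf1, Farp1, Katnal1 and Pitpnm2 for Fasn, Tbc1d12, Palld and Dock6 for Scd1, and Lepr, Tmem237 and 8430408G22Rik for Scd2. The correlations were between 0.949 and 0.987 over 9 points, and no member was among the first 3 of another.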

How the data were processed

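RNA of sorted splenic and hepatic macrophages was measured, and the labels gave each library its organ, subset and genotype. The authors amplified targets with an Ion AmpliSeq mouse transcriptome kit, used an Ion Proton sequencer and counted reads with the AmpliSeqRNA plug-in; the submitters' processing notes name mm10. The authors deposited RPM for 23930 genes. In every library, 100.0% of the values were whole reads within 0.1 reads, so reads were recovered.

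In each comparison, RPM were scaled by factors of the relative log expression method, genes that reached 1 RPM in 3 or more libraries of the comparison were kept, and log2(value + 1) was tested with limma 3.58.1 in R 4.3.3, with a trend, two-sided, with Benjamini-Hochberg adjustment over all tested genes. The added 1 understates the change of low genes. Differences of differences were fitted over 4 groups. Scripts were tested on simulated data. Alternatives were an added value of 0.1, no filter, RPM as deposited, the replicate number as a block, a single fit to every library, edgeR 4.0.16, DESeq2 1.42.0 on recovered reads, and leaving out each library. The genes, lists and pathway genes named were chosen with earlier results of these data known, and the study had examined LXR targets in these libraries. Every member is named, with the 3 genes most like it. By the rule, genes of the lists were named if preset or if their change was the highest or lowest of a list in a genotype comparison; not all of these are printed, and some are not reported here. The markers of other cells that differ in each comparison are given as sums. An exact permutation test could not give a p below 0.1 with 3 libraries against 3, so none is given. Same-numbered libraries deviated together in every pair only between the hepatic subsets of Rnaset2-/- mice, with correlations of 0.527, 0.232 and 0.458.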

Additional observations from a re-analysis of the deposited data

Results flagged for a closer look

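KC replicate 3 lay far from the other KC libraries for Abca1, at 179.272 RPM, and for Scd1, at 416.962 RPM, each gap exceeding Dixon's critical value for 4 samples. There were 2 such values among 20 sets of 4 libraries, and chance gives about 1 in 20. Abca1 was the lowest and Scd1 the highest of the 4 there, in the library with the most hepatocyte markers, and the part of these cells was not tested.

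Genotype differences that themselves differed between organs, as tested by the interaction in limma, were those of Abca1 (2.658), Mylip (1.667) and Scd1 (4.043) in Ly6C-high macrophages, on the log2 scale as liver minus spleen. In Ly6C-low macrophages they were those of Abca1 (1.684), Lpcat3 (0.7496), Scd1 (2.265) and Pltp (1.347). Between the subsets, as Ly6C-low minus Ly6C-high, they were Scd1 in the spleen (-1.608), and Abcg1 (1.019) and Scd1 (-3.311) in the liver. Scd1 was at most 1.73 RPM in splenic Ly6C-high macrophages.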

How the results depend on the processing

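Of the values of single members under all alternatives, 2530 kept their direction and their side of the threshold, 104 lost the call and 69 gained one, and none changed direction after a call. The number of members called moved by more than 1.5 times in few settings, whose cause was not tested. RPM as deposited gave 8 in KCs against WT hepatic Ly6C-low macrophages, 7 for genotype by organ in Ly6C-high macrophages, and 2 in the spleen and 1 in the liver for genotype by subset. The replicate block gave 2 for organ in WT Ly6C-low and 2 for genotype by organ in Ly6C-low macrophages, and a single fit of all libraries gave 2 for the former. For genotype by subset in the spleen, the added value of 0.1, the single fit and edgeR each gave 0, and replicates 3 and 4 of Rnaset2-/- Ly6C-low macrophages alone gave 4. For genotype by subset in the liver, replicates 2 and 3 of Rnaset2-/- mice alone gave 4. These 2 restrictions were chosen after seeing the data. The share of all genes called is not given for these alternatives or for the counts with libraries left out, so these counts describe the members alone.

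With 1 library left out, the number called was 2 to 3 for genotype in splenic Ly6C-high, 2 to 4 in splenic Ly6C-low, 3 to 7 in hepatic Ly6C-high and 2 to 6 in hepatic Ly6C-low macrophages. For subset it was 6 to 7 in WT spleen, 2 to 4 in WT liver, 5 to 6 in Rnaset2-/- spleen and 1 to 4 in Rnaset2-/- liver. For organ it was 4 to 5 in WT Ly6C-high, 1 to 2 in WT Ly6C-low, 5 to 7 in Rnaset2-/- Ly6C-high and 3 to 5 in Rnaset2-/- Ly6C-low macrophages. It was 4 to 5 for KCs against WT and 4 to 7 for Rnaset2-/- hepatic Ly6C-low macrophages against KCs, 3 to 6 and 2 to 5 for genotype by organ in Ly6C-high and Ly6C-low macrophages, and 1 to 3 and 2 to 3 for genotype by subset in spleen and liver. Outside the hepatic subsets of Rnaset2-/- mice, same-numbered libraries did not deviate together in every pair. Single pairs did, with a correlation of 0.597 for replicate 1 of the WT hepatic subsets, against -0.114 and -0.159 for replicates 2 and 3. Those WT subsets also shared by number which libraries held Y-linked transcripts, and whether they share mice is not given. With the replicate block, 7 of 179 values lost and 4 gained the call. Depth limited mainly Scd1 in splenic Ly6C-high macrophages, near the floor of 3 reads.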
